A study of Mus musculus with 18 samples.

Results

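The genes described here are 40 genes of the cell division cycle, taken by symbol from a deposited table of 18946 genes measured in mouse liver. They comprise 5 G1 cyclins, 3 transcription factors, 6 subunits of the replicative helicase, 4 genes of replication and nucleotide supply, 9 mitotic cyclins and kinases, 7 genes of the spindle and of cytokinesis, 3 chromosome proteins and 3 genes of mitotic exit. The genes were listed by name, with earlier results of these data known, and all 40 were found in the table. RNA was sequenced from the livers of 10 Old and 8 Young male C57BL/6J mice, a common inbred strain, bought from a commercial breeder. The labels give 19.76 months (85.86 weeks) for the Old mice and 6.18 months (26.86 weeks) for the Young mice. No mouse carried a transgene or an induced mutation per the labels. All livers, Old and Young, were frozen straight after a hyperinsulinemic-euglycemic clamp, an infusion of insulin with enough glucose to keep blood glucose steady, and thus all had been exposed to insulin. RNA came from 5 Old and 5 Young livers with the RNeasy kit and from 5 Old and 3 Young livers with the AllPrep kit, and ribosomal RNA was depleted. The labels give a single day of sacrifice for all mice. The submitters' texts give ages of the Old mice that differ from the labels and from each other, and the labels' ages are used here.

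A cell that divides passes from G1, in which D- and E-type cyclins release the E2F factors, through S phase, in which the MCM helicase opens DNA for copying, to mitosis, which cyclin B and CDK1 start and the ubiquitin ligase APC/C ends. Adult hepatocytes rest outside the cycle for most of their life and re-enter it after loss of liver mass or injury. The mitotic transcripts are accordingly scarce in a resting liver, and hepatocytes, Kupffer cells, endothelial cells and other cells of the tissue can each contribute to them. In bulk RNA of whole liver, more cells of a type and more RNA per cell cannot be told apart.

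Levels are given as scaled TPM, the deposited TPM (reads per gene length as a share of the library total) after a further scaling factor per library. Whole reads recovered from the table came to 85790735 to 127487820 per library, and a library held from 6 reads (Cdkn3) to 13202 reads (Ccnd1) of a member. Summed hepatocyte markers (10 of 10 genes listed) reached 105400 to 147900 scaled TPM in Old livers and 101260 to 143060 in Young livers. Of the 9 cell type lists, no marker found in the table was at 0 in every library. The table held 7 of the 9 listed neutrophil markers, 7 of the 8 endothelial markers and all markers of the other lists. Old replicate 14 stood apart: of the 13895 genes tested, 19.7% were highest of the 18 libraries in this liver. Member results that rest on it are therefore given with and without it.

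The Old livers spread over a wider range than the Young livers in most of these genes, and no gene was called different between the ages. Old replicate 14 held the highest level of 35 of the 40 genes. Old replicates 5 and 9 came next, with 33 and 30 genes among the 3 highest libraries. The remaining Old livers lay on both sides of the Young range. Counted against the highest Young liver, 35 genes were above it in Old replicate 14 (28.2% of all tested genes were), 32 in Old replicate 5 (13.6% of all), 31 in Old replicate 9 (19.1% of all), 18 in Old replicate 8 (21.8% of all) and 14 in Old replicate 7 (18.3% of all). Old replicates 6, 15, 16, 17 and 18 had 0 to 1 such genes. Counted against the lowest Young liver, 20 genes were below it in Old replicate 17 (19.1% of all tested genes were), 15 in Old replicate 16 (10.5% of all), 11 in Old replicate 18 (16% of all), 9 in Old replicate 6 (12.9% of all) and 9 in Old replicate 15 (14.2% of all). Of the 31 members among the tested genes, 26 were above the highest Young liver in Old replicate 14, 23 in replicate 5, 22 in replicate 9, 13 in replicate 8 and 11 in replicate 7, and 14 were below the lowest in replicate 17, 9 each in replicates 16 and 18, 7 in replicate 6 and 6 in replicate 15. The 5 livers with many genes above the Young range thus held few below it, 0 to 3.

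**Figure D1:**
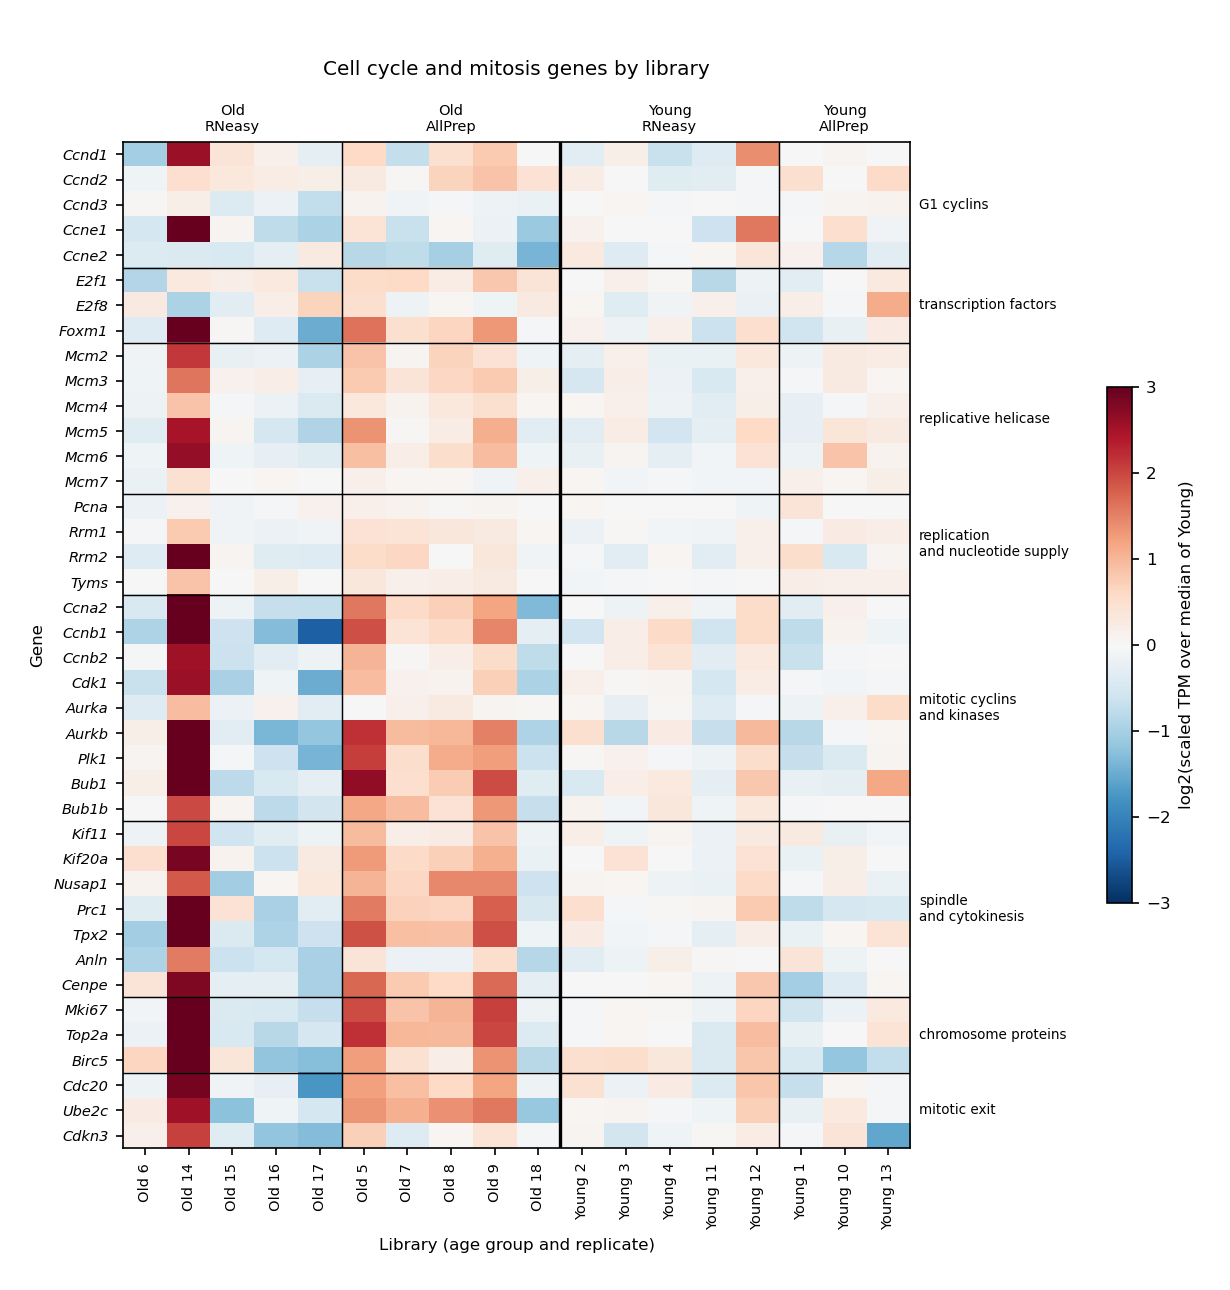
Level of the 40 genes (rows, grouped by role) in each of the 18 livers (columns), as log2 of the scaled TPM over the median of the Young livers (values beyond the ends of the colour scale are drawn at its ends). Old livers stand left of Young livers, and within an age the RNeasy livers stand left of the AllPrep livers. Old replicate 14 is the deepest red column, Old replicates 5 and 9 follow, and Old replicate 17 is blue over many rows.

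No member differed between the ages past the threshold. In limma, fitted on age and extraction kit with adjustment over all 13895 genes, 0 of the 31 members that passed the filter on low values were called higher in Old livers (adjusted p under 0.05; 2.43% of all tested genes) and 0 were called lower (2.48% of all). At an unadjusted p under 0.05, Mcm3 was higher (11.8% of all genes were) and Ccne2 lower (11.8% of all). limma-voom on the recovered reads also called 0 members, with 0 higher and 2 lower at an unadjusted p under 0.05. The 9 members that did not pass were Foxm1, Aurkb, Plk1, Bub1, Kif20a, Tpx2, Anln, Cenpe and Birc5, and with a lower filter, under which all 40 were tested, limma again called 0 in each direction (1 higher and 1 lower at an unadjusted p under 0.05). The shares of all genes in the limma-voom and lower-filter fits are not given here, so these counts describe the members alone. The Old over Young fold was above 0 for 27 of the 31 (50.6% of all genes), with a median log2 fold of 0.20 against 0.0025 over all genes. Without Old replicate 14 it was above 0 for 19 of the 31 (51% of all genes), the median was 0.02, and limma called 0 members higher (3.66% of all) and 0 lower (3.49% of all). The only member called in any setting run was Ccnd3, at a log2 fold of -0.23 (limma adjusted p = 0.0374; 5.2% of all genes were called lower) when libraries were weighted by their spread. No member had every Old liver above every Young liver (0.223% of all tested genes) or below (0.202% of all).

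**Figure D2:**
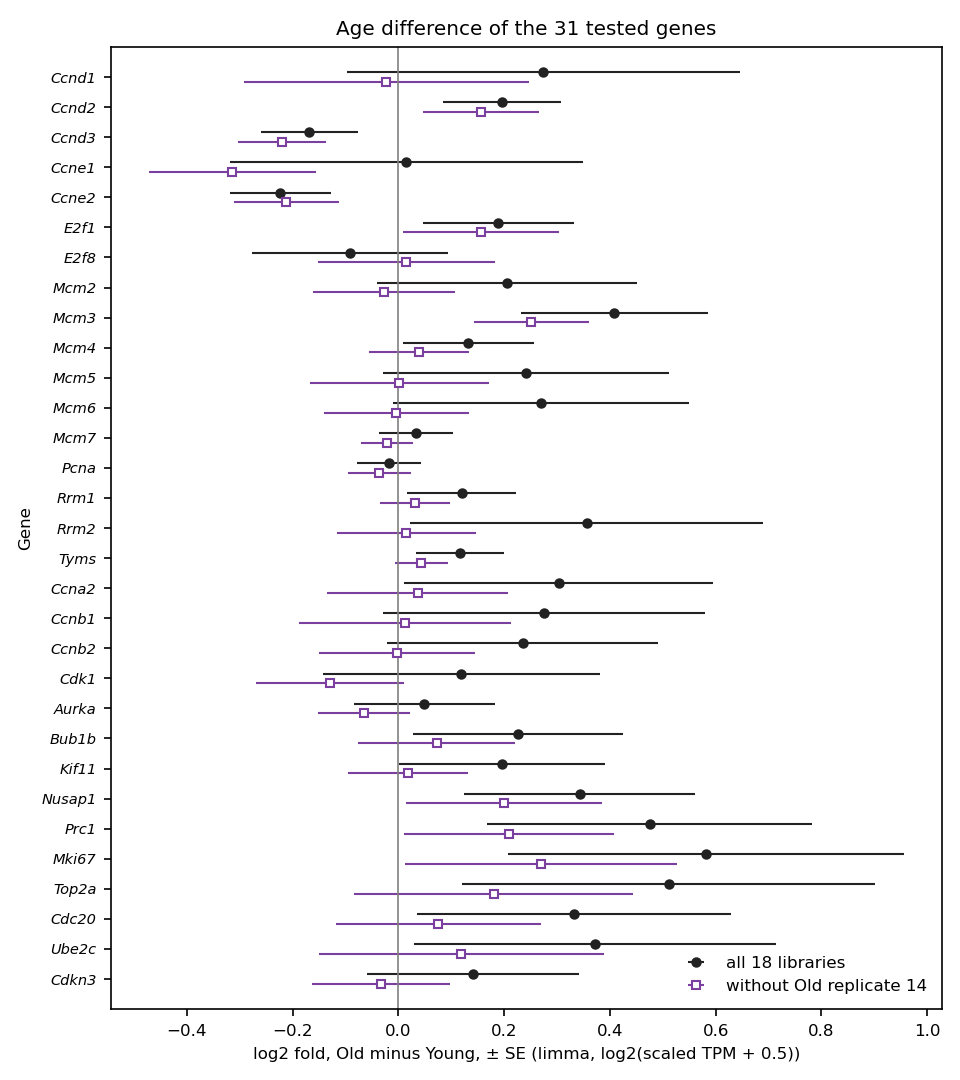
Log2 fold, Old minus Young, with its SE (horizontal axis, limma on log2(scaled TPM + 0.5)) for the 31 genes tested, with all 18 libraries (black circles) and without Old replicate 14 (open purple squares). With all libraries 27 of 31 points lie above 0; without that liver 19 do, and the points of the mitotic genes in the lower part of the plot lie further left.

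Among the G1 cyclins, Ccnd1, the D-type cyclin that growth signals induce in hepatocytes, had 5.25, 12.8 and 63.9 scaled TPM in Old livers (lowest, median and highest), against 6.62, 10.6 and 28.0 scaled TPM in Young livers. The groups overlapped, and the highest values were those of Old replicate 14 and Young replicate 12. The log2 fold was 0.27 ± 0.37 (SE, adjusted p = 0.684 by limma), or -0.02 without Old replicate 14. Ccnd3, another D-type cyclin, had 13.7, 21.1 and 26.0 scaled TPM in Old livers, against 22.0, 23.0 and 24.6 scaled TPM in Young livers. Its log2 fold was -0.17 ± 0.09 (SE, adjusted p = 0.278 by limma), and -0.22 (0.114) without Old replicate 14; the lowest Old livers were replicates 17 and 15. Ccne2, an E-type cyclin that activates CDK2 at the start of S phase, had 0.309, 0.592 and 0.975 scaled TPM in Old livers, against 0.445, 0.808 and 1.04 scaled TPM in Young livers, a log2 fold of -0.22 ± 0.10 (SE, adjusted p = 0.165 by limma). Old replicate 14 did not stand out in it, at 0.599. In Ccne1, the other E-type cyclin, the same liver had 6.32 scaled TPM, against 0.257 to 0.750 in the other Old livers and 0.365 to 1.68 in Young livers, where replicate 12 was again highest. Ccnd2 was at 2.98 to 5.88 scaled TPM in Old livers and at 2.52 to 4.83 in Young livers.

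Among the transcription factors, E2f1, an activator of S phase genes, had 0.942, 2.13 and 3.05 scaled TPM in Old livers, against 0.979, 1.73 and 2.12 in Young livers (log2 fold 0.19 ± 0.14, SE, adjusted p = 0.443 by limma). Old replicate 14 was at 2.12, within the range of the other Old livers. E2f8, an atypical E2F that represses E2F targets, had 4.39, 9.34 and 13.5 scaled TPM in Old livers, against 6.64, 8.52 and 18.5 in Young livers (log2 fold -0.09 ± 0.19, SE, adjusted p = 0.801 by limma). It was lowest of all 18 libraries in Old replicate 14, the liver with most other members at their highest, and highest in Young replicate 13. The log2 fold of E2f8 was 0.02 without Old replicate 14. Foxm1, which drives G2 and M phase genes, had 0.110, 0.375 and 2.52 scaled TPM in Old livers, against 0.199, 0.310 and 0.441 in Young livers. It was under the filter, and Old replicates 14, 5, 9, 8 and 7 stood above the other 5 Old livers, which had 0.110 to 0.317 scaled TPM.

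The replicative helicase is a ring of the 6 proteins Mcm2 to Mcm7. Mcm2 had 0.984, 1.90 and 8.33 scaled TPM in Old livers, against 1.60, 1.91 and 2.36 in Young livers. The medians of the groups were close and the extremes were both Old, with replicate 17 lowest and replicate 14 highest; the log2 fold was 0.20 ± 0.25 (SE, adjusted p = 0.643 by limma), and -0.03 without Old replicate 14. Mcm3 had 2.28, 3.35 and 8.24 scaled TPM in Old livers, against 1.92, 2.72 and 3.26 in Young livers, with a log2 fold of 0.41 ± 0.18 (SE, adjusted p = 0.169 by limma). Mcm4 had 2.40, 3.42 and 5.79 scaled TPM in Old livers, against 2.53, 3.22 and 3.64 in Young livers (log2 fold 0.13 ± 0.12, SE, adjusted p = 0.543 by limma). The log2 folds of Mcm3 and Mcm4 were 0.25 and 0.04 without Old replicate 14. All 6 subunits were highest in Old replicate 14, but not by the same factor: over the Young median, Mcm6 was 6.27 times, Mcm5 5.57 times, Mcm2 4.36 times, Mcm3 3.03 times, Mcm4 1.80 times and Mcm7 1.37 times as high. Mcm7 was the most even of the 6, at 6.90 to 8.81 scaled TPM in the other Old livers and 7.47 to 9.03 in Young livers.

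Genes of replication and nucleotide supply differed in how even they were. Pcna, the sliding clamp of DNA polymerases, had 26.9, 31.6 and 33.9 scaled TPM in Old livers, against 27.6, 30.4 and 40.1 in Young livers, and its log2 fold was -0.02 ± 0.06 (SE, adjusted p = 0.891 by limma). Old replicate 14 was not highest in it, at 33.0 scaled TPM; Young replicate 1 was. Rrm1, the large subunit of ribonucleotide reductase, had 4.57, 5.79 and 8.93 scaled TPM in Old livers, against 4.59, 5.17 and 6.15 in Young livers (log2 fold 0.12 ± 0.10, SE, adjusted p = 0.506 by limma). Its partner Rrm2, the small subunit, which is made in S phase, was at 33.4 scaled TPM in Old replicate 14, against 3.23 to 6.55 in the other Old livers and 3.08 to 6.15 in Young livers. The 2 subunits of one enzyme therefore differed in this liver, at 1.73 times (Rrm1) and 7.88 times (Rrm2) the Young median. Tyms, thymidylate synthase, had 1.32, 1.49 and 2.40 scaled TPM in Old livers, against 1.25, 1.32 and 1.51 in Young livers (log2 fold 0.12 ± 0.08, SE, adjusted p = 0.413 by limma). The log2 folds of Rrm1 and Tyms were 0.03 and 0.04 without Old replicate 14.

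**Figure D3:**
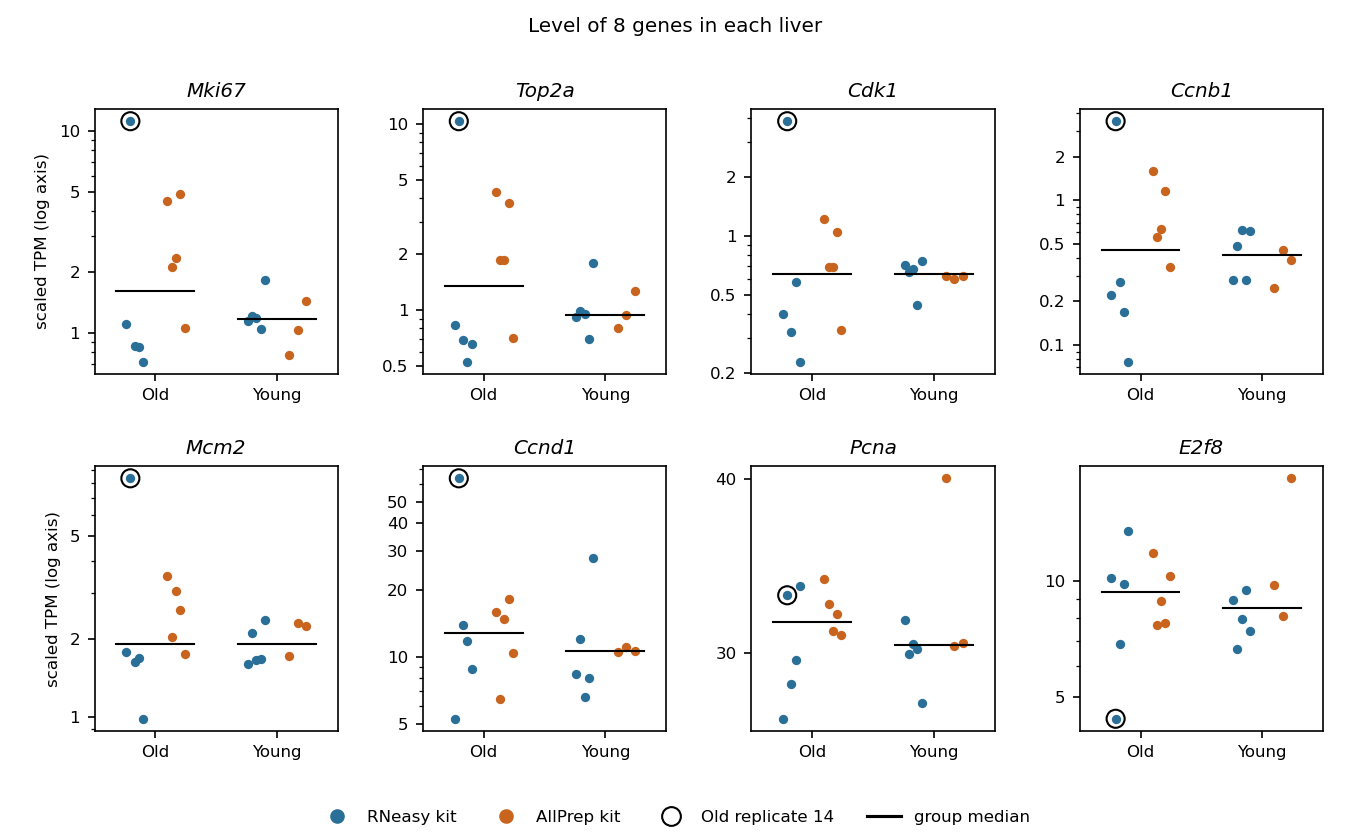
Scaled TPM (vertical log axis) of 8 genes in each liver, Old left and Young right in each panel; blue points are RNeasy livers, orange points AllPrep livers, lines are group medians and the ring marks Old replicate 14. In Mki67, Top2a, Cdk1, Ccnb1 and Mcm2 the Old livers spread beyond the Young livers on both sides, in Ccnd1 2 livers stand above the rest, Pcna is even, and E2f8 is lowest in the ringed liver.

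Mitotic cyclins and kinases were low, and most ordered the livers alike. Cdk1, the kinase that starts mitosis, had 0.228, 0.636 and 3.85 scaled TPM in Old livers, against 0.446, 0.638 and 0.745 in Young livers. Its group medians were nearly equal, whereas the Old range was far wider; the log2 fold was 0.12 ± 0.26 (SE, adjusted p = 0.817 by limma), and -0.13 without Old replicate 14. Ccnb1, its cyclin partner, had 0.0766, 0.453 and 3.53 scaled TPM in Old livers, against 0.248, 0.421 and 0.621 in Young livers (log2 fold 0.28 ± 0.31, SE, adjusted p = 0.613 by limma). The lowest value, in Old replicate 17, rested on 10 reads. Ccna2, a cyclin of S and G2 phase, had 0.199, 0.593 and 4.37 scaled TPM in Old livers, against 0.397, 0.498 and 0.735 in Young livers (log2 fold 0.30 ± 0.29, SE, adjusted p = 0.556 by limma). Bub1b, a kinase-like protein of the spindle checkpoint, had 0.321, 0.673 and 2.20 scaled TPM in Old livers, against 0.509, 0.555 and 0.700 in Young livers (log2 fold 0.23 ± 0.20, SE, adjusted p = 0.515 by limma). In each of the 4 genes the highest and the lowest of the 18 livers were both Old. The log2 folds of Ccnb1, Ccna2 and Bub1b were 0.01, 0.04 and 0.07 without Old replicate 14. Of the other 5 genes, Ccnb2, Aurkb (the kinase of the chromosomal passenger complex), Plk1 and Bub1 were 5.85 to 14.2 times as high in Old replicate 14 as in the Young median, and Aurka, a centrosome kinase, 1.90 times.

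Spindle and cytokinesis genes were again highest in Old replicate 14. Prc1, which bundles microtubules of the central spindle, had 0.245, 0.700 and 4.96 scaled TPM in Old livers, against 0.285, 0.480 and 0.826 in Young livers (log2 fold 0.48 ± 0.31, SE, adjusted p = 0.361 by limma). Nusap1, a spindle protein that binds microtubules, had 0.379, 1.08 and 2.80 scaled TPM in Old livers, against 0.674, 0.777 and 1.17 in Young livers (log2 fold 0.34 ± 0.22, SE, adjusted p = 0.355 by limma). Without Old replicate 14 the log2 folds were 0.21 and 0.20. Kif11, the motor that keeps spindle poles apart, Kif20a and Anln, which act in cytokinesis, Tpx2, an activator of Aurora A, and Cenpe, a kinetochore motor, were each highest in Old replicate 14, at 2.97 (Anln) to 8.31 (Tpx2) times the Young median.

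Among the chromosome proteins, Mki67 and Top2a had the 2 largest log2 folds of the members tested in the main fit, and neither was called. With pseudocount and filter of 0.05 Mki67 was at 0.67, but Prc1 (0.66), Cenpe, Aurkb and Plk1 (0.61 each) exceeded Top2a (0.57). Mki67, which coats mitotic chromosomes and is the usual marker of cycling cells, had 0.717, 1.60 and 11.2 scaled TPM in Old livers, against 0.774, 1.16 and 1.83 in Young livers. Its log2 fold was 0.58 ± 0.37 (SE, adjusted p = 0.360 by limma), and 0.27 ± 0.26 (SE, 0.547) without Old replicate 14. Top2a, the topoisomerase that untangles sister chromatids, had 0.530, 1.35 and 10.4 scaled TPM in Old livers, against 0.702, 0.947 and 1.80 in Young livers (log2 fold 0.51 ± 0.39, SE, adjusted p = 0.447 by limma, and 0.18 without Old replicate 14). In both genes Old replicate 14 was highest, replicates 5 and 9 followed, and then 7 and 8, while the other 5 Old livers were at 0.717 to 1.10 scaled TPM (Mki67) and at 0.530 to 0.835 (Top2a). Birc5, survivin, a subunit of the chromosomal passenger complex, was at 2.63 scaled TPM in Old replicate 14, against 0.114 to 0.700 in the other Old livers and 0.123 to 0.493 in Young livers.

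Among the genes of mitotic exit, Cdc20, the activator of the ligase APC/C in mitosis, had 0.219, 0.903 and 5.35 scaled TPM in Old livers, against 0.453, 0.735 and 1.32 in Young livers (log2 fold 0.33 ± 0.30, SE, adjusted p = 0.523 by limma). Ube2c, the ubiquitin-conjugating enzyme of that ligase, had 0.633, 2.43 and 8.73 scaled TPM in Old livers, against 1.28, 1.49 and 2.45 in Young livers (log2 fold 0.37 ± 0.34, SE, adjusted p = 0.536 by limma). Both had Old livers above and below the whole Young range. The log2 folds of Cdc20 and Ube2c were 0.08 and 0.12 without Old replicate 14. Cdkn3, a phosphatase that acts on cyclin-dependent kinases, was at 0.205 to 2.09 scaled TPM in Old livers and at 0.172 to 0.661 in Young livers.

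The 22 mitotic genes (cyclins and kinases, spindle, chromosome and exit) were added up to order the livers. Their sum was 93.6 scaled TPM in Old replicate 14, 37.5 in replicate 5, 35.98 in replicate 9, 24.9 in replicate 8 and 22.6 in replicate 7, and 10.5 to 13.9 in the other 5 Old livers, against 12.8 to 21.2 in Young livers. Among the Young livers replicate 12 was highest. Old replicate 14 exceeded the next library more than 2 times in 25 of the 40 genes; among the 31 tested it did so in 16, against 2.7% of all tested genes. Markers of other cells moved in part with this order. Summed Kupffer cell and macrophage markers (12 of 12 genes in the table, none at 0 in every library) reached 382.2 to 1228 scaled TPM in Old livers and 375.9 to 802.5 in Young livers. They stood at 1038 in Old replicate 14, 879.2 in replicate 5, 859.9 in replicate 9, 1228 in replicate 8 and 740.7 in replicate 7, and at 781.3 in replicate 18, whose mitotic sum was 11.7. Of the 12 genes, 1 was highest of the 18 livers in Old replicate 14 and 0 were lowest. Marco and Timd4 had 452 and 558 reads in that liver, against 242 to 4259 and 498 to 1086 over the 18 livers. Endothelial markers (7 of 8 genes in the table) summed to 123.3 to 207.8 scaled TPM in Old and 126.9 to 191.8 in Young livers, highest of the 18 in Old replicate 14, where 4 of the 7 genes were at their highest. The cholangiocyte sum (6 of 6 genes, 24.2 to 89.5 in Old and 27.0 to 65.7 in Young livers) was also highest there, but only Spp1 and Sox9 were at their highest, and Epcam (0.345 scaled TPM) and Krt19 (0.618) were among their 4 lowest values of the 18. The hepatocyte sum was highest in this liver through Alb, the main plasma protein, and Apoa1, while 7 of the 10 hepatocyte markers were lowest of the 18 there. Those 7 were Serpina1c, Cps1, Ass1, Tat, Cyp2e1, Cyp3a11 and Hnf4a; Cyp2e1, a drug-metabolising enzyme, was at 1665 scaled TPM in Old replicate 14, against 7313 to 18946 in the other 17 livers. T and NK cell markers summed to 9.02 scaled TPM in Old replicate 14, within the Young range of 6.11 to 15.6, and were above that range in Old replicates 9 (25.1) and 8 (21.4). Neutrophil markers (7 of 9 genes in the table) summed to 91.8 scaled TPM in Old replicate 8, against 4.78 to 31.2 in Young livers. In Old replicate 14, B and plasma cell markers summed to 415.5 scaled TPM (380.4 to 438.1 in Young livers). Stellate cell markers summed to 277.2 there (188.3 to 293.1 in Young) and erythroid markers to 3005 (1276 to 4568 in Young). Of these lists, 4 of 8, 3 of 8 and 1 of 8 genes were highest of the 18 livers in it. The part of these cells in the levels of the cell cycle genes was not tested.

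Members differed in how closely they followed each other. Across the 18 libraries, the median Spearman correlation over all pairs was 0.76 among the 22 mitotic genes and 0.81 among the 6 helicase genes, against 0.02 among the 5 G1 cyclins and -0.01 over all pairs of tested genes. Without Old replicate 14 the values were 0.72 for the mitotic and 0.77 for the helicase genes. Within the 9 other Old livers the mitotic genes stood at 0.82 and within the 8 Young livers at 0.45. These are descriptions: the pairs share libraries, depth and scaling, and the low read numbers of the mitotic genes add counting error that weakens them. The wider spread of the Old livers showed in the same terms. On the scale of log2(scaled TPM + 0.5), the SD was larger in Old than in Young livers for 28 of the 31 tested members (70% of all tested genes), or for 25 of 31 without Old replicate 14 (57.1% of all). The median SD of the members was then 0.37 in the 9 Old and 0.24 in the 8 Young livers, and over all tested genes 0.20 in Old and 0.19 in Young livers. Within AllPrep livers the SD was larger in Old livers for 21 of 31 members (45.8% of all genes), with a median of 0.31 in Old and 0.19 in Young livers (0.17 and 0.19 over all genes). Within RNeasy livers without Old replicate 14 it was larger for 17 of 31 (66.9% of all), with a median of 0.20 in Old and 0.19 in Young livers (0.16 and 0.13 over all genes).

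The promoters of genes whose levels ran in parallel are shown for 5 mitotic genes and 1 helicase gene, because they differ in motifs known for this gene class. Genes of G2 and M phase are known for a cell cycle genes homology region (CHR, searched as TTTGAA), which MuvB complexes bind, together with CCAAT boxes (searched as CCAAT), which NF-Y binds, whereas S phase genes are known for E2F sites (searched as TTTNNCGC). Both strands were searched and the 3 motifs were allowed to overlap. Sequences are those of RefSeq on GRCm38.p6, whose table holds 250 bases before and 50 after a gene's start and matched 31 of the 40 genes. Ccnd1, Ccnd2, Ccne2, Foxm1, Mcm4, Ccna2, Aurkb, Kif20a and Tpx2 had no entry there. Printed are the 200 bases before the start, read 5′ to 3′ on the strand of the gene, with motif matches in capitals.
Cdk1, chr10:69352913-69353112, minus strand: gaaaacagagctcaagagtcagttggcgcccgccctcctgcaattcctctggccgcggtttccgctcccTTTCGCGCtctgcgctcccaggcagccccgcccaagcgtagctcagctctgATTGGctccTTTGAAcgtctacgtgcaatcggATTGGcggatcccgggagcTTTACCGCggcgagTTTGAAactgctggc
Top2a, chr11:99024190-99024389, minus strand: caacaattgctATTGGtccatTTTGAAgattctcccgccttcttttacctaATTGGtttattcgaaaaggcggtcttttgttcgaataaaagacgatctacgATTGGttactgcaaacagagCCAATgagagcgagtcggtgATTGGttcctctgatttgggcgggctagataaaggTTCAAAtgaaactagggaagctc
Mki67, chr7:135716380-135716579, minus strand: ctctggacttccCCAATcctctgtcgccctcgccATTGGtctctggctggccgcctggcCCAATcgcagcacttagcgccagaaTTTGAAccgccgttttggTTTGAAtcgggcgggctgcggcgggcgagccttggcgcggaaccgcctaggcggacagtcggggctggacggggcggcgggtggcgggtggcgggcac
Kif11, chr19:37376182-37376381, plus strand: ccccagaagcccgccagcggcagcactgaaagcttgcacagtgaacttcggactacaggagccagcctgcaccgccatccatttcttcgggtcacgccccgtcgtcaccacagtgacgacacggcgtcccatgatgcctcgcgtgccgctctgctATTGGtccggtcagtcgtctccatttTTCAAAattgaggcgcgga
Cdc20, chr4:118437344-118437543, minus strand: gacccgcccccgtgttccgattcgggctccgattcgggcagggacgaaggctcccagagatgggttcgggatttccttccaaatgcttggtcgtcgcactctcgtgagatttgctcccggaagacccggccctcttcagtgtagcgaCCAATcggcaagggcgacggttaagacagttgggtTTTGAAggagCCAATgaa
Mcm6, chr1:128359706-128359905, minus strand: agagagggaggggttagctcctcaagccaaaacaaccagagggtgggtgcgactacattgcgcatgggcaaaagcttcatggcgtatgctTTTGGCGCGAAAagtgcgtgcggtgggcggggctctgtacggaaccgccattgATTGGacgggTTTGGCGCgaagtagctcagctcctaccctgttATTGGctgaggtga
ATTGG is CCAAT and TTCAAA is TTTGAA read on the other strand, and the longer capital run in Mcm6 is a pair of overlapping E2F matches. In Cdk1 the CHR letters begin 71 and 15 bases before the start and in Cdc20 18 bases before it, each with a CCAAT box near by; Mcm6 has CCAAT and E2F letters and no CHR letters in this window. Over the full 300 bases, TTTGAA was found in 13 of the 18 mitotic genes with a promoter entry (72.2%), in 15 of the 31 members (48.4%) and in 16.1% of all 14077 genes with an entry. CCAAT was found in 25 of the 31 members (80.6%) and in 41.7% of all genes, and both letters together in 12 of the 18 mitotic genes (66.7%) and in 7.62% of all genes. TTTNNCGC was found in 6 of the 31 members (19.4%), 1 of them mitotic, and in 8.34% of all genes. A match describes letters and shows no binding. E2f8, lowest in Old replicate 14, also holds TTTGAA, 20 bases before its start.

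The folds of the mitotic genes had opposite signs in the 2 extraction sets once Old replicate 14 was left out, for 13 of the 14 that were tested (all but Aurka), and no member was called in either set. The share of all tested genes with opposite signs was not computed. In RNeasy livers the mitotic sum was 12.1 ± 1.40 scaled TPM in Old mice without replicate 14 (SD, n = 4) and 16.3 ± 3.11 in Young mice (SD, n = 5). In AllPrep livers it was 26.5 ± 10.6 in Old mice (SD, n = 5) and 15.1 ± 1.98 in Young mice (SD, n = 3). Old replicate 18 was the 1 AllPrep liver of an Old mouse with a low sum. Within RNeasy without Old replicate 14, 5 of 31 folds were above 0 (50.8% of all genes were), with a median log2 fold of -0.21; with that liver included 29 of 31 were, with a median of 0.14. Without it limma called 0 of them (0.453% of all genes were called), with 6 lower at an unadjusted p under 0.05 (5.92% of all genes): Ccnd3, Ccna2, Ccnb1, Cdk1, Mki67 and Top2a. Every Old liver of this set was below every Young liver in Ccnb1, Tpx2 and Anln, 3 of the 40 genes. Only Ccnb1 was among the 31 tested members, so 1 of 31 stands against 2.61% of all tested genes. Its nearest livers were Old replicate 15 at 0.274 scaled TPM (28 reads) and Young replicate 11 at 0.279 (29 reads). With Old replicate 14 included, 0 members were separated in this way. Within AllPrep 24 of 31 folds were above 0 (51.1% of all genes were), with a median log2 fold of 0.23. In this set limma called 0 of the members (1.11% of all genes were called). At an unadjusted p under 0.05, 5 were higher (9.9% of all genes): E2f1, Mcm3, Prc1, Mki67 and Cdc20. Mki67 had a log2 fold of -0.36 ± 0.13 (SE, adjusted p = 0.292 by limma) within RNeasy without Old replicate 14 and of 1.01 ± 0.38 (SE, adjusted p = 0.202 by limma) within AllPrep.

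The difference between the sets was tested by a kit by age term. With all libraries limma called 0 members, as it called 0% of all genes, with 0 members at an unadjusted p under 0.05. Without Old replicate 14 it called 0 members (0.0216% of all genes), although 12 of 31 were at an unadjusted p under 0.05 in the direction of a lower RNeasy fold (4.49% of all genes). The 12 were Mcm4, Ccna2, Ccnb1, Ccnb2, Cdk1, Bub1b, Kif11, Prc1, Mki67, Top2a, Cdc20 and Ube2c, and the largest term was that of Mki67, at -1.37 ± 0.41 (SE, adjusted p = 0.426 by limma). Levels were also compared between the kits. RNeasy livers against AllPrep livers had 1 of the 31 members called higher (12.2% of all genes) and 0 lower (7.16% of all) with all libraries. These were smaller shares than over all genes. Without Old replicate 14, 1 was higher (13.9% of all genes) and 6 were lower (11% of all). The 6 lower calls appeared only once that liver, an RNeasy liver with high levels of most members, was left out. Ccne2 was higher, at a log2 fold of 0.29 (limma adjusted p = 0.0406), and Ccnd2, Mcm2, Mcm3, Mcm6, Rrm1 and Aurka were lower, by -0.40 (Mcm6) to -0.26 (Aurka). Rrm1 averaged 4.78 scaled TPM in Old RNeasy livers without replicate 14 and 5.06 in Young RNeasy livers, and 6.38 in Old and 5.69 in Young AllPrep livers. Kupffer cell and macrophage markers summed to 542.9 ± 147.4 scaled TPM in Old RNeasy livers without replicate 14 (SD, n = 4) and 512.1 ± 129.9 in Young RNeasy livers (SD, n = 5), and to 897.7 ± 192.9 in Old AllPrep livers (SD, n = 5) and 689.6 ± 124.5 in Young AllPrep livers (SD, n = 3). Their part in the difference between the sets was not tested. How the mice were assigned to a kit is not given in the sources used here. Old AllPrep mice were mostly heavier at the clamp than Old RNeasy mice, although their ranges overlapped. The part of weight in the difference between the sets was not tested.

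**Figure D4:**
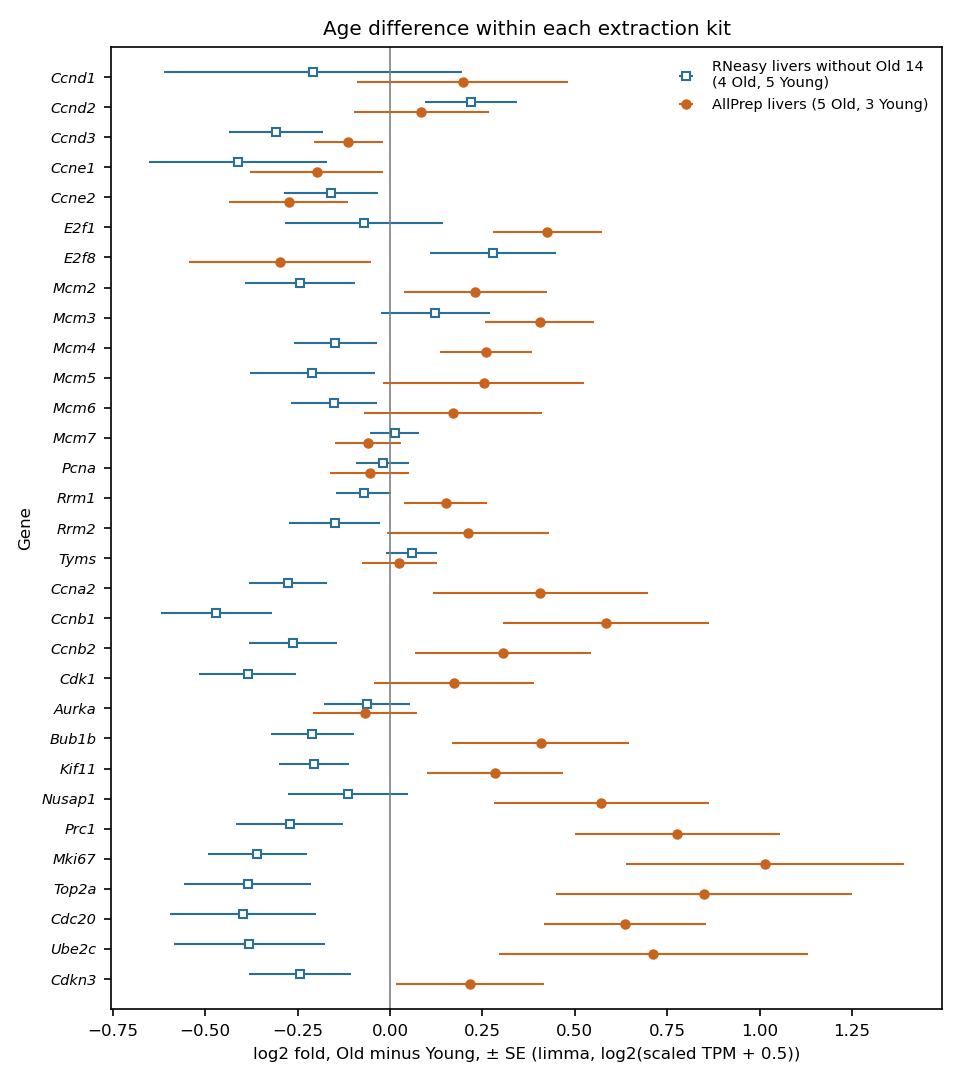
Log2 fold, Old minus Young, with its SE (horizontal axis, limma on log2(scaled TPM + 0.5)) for the 31 tested genes within RNeasy livers without Old replicate 14 (open blue squares, 4 Old and 5 Young) and within AllPrep livers (orange circles, 5 Old and 3 Young). From Ccna2 down, the mitotic genes other than Aurka lie left of 0 in RNeasy and right of 0 in AllPrep livers, whereas Mcm7, Pcna and Tyms lie near 0 in both.

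The series is about insulin action, and each mouse has a labelled suppression of glucose production by insulin, 25.4% to 68.4% in Old and 68.4% to 92.0% in Young mice. The slope of each gene on this percentage, within age and kit, was above 0 for 30 of the 31 members (49.7% of all genes), and for 27 of 31 (50.2% of all) without Old replicate 14. The median slope of the members was 0.0166 on the log2 scale per percentage point, and 0.0072 without that liver. limma called 0 of them (0% of all genes), with 10 at an unadjusted p under 0.05 and a positive slope (3.79% of all genes): Mcm5, Ccnd1, Ccne1, Ccnb1, Prc1, Top2a, Ccna2, Rrm2, Bub1b and Cdkn3. Ccnd1 had a slope of 0.38 ± 0.13 on the log2 scale per 10 percentage points (SE, adjusted p = 0.557 by limma), and 0.25 without Old replicate 14. Leaving out 1 liver moved the count of 10 widely. It was 4 without Old replicate 14 (3.43% of all genes), 3 without Old replicate 17 and 4 each without Old replicates 5 and 16. It was 5 each without Old replicate 6 and Young replicate 12, and 6 without Old replicate 9. The count rose to 11 without Young replicate 1, 15 without Old replicate 8 and 22 without Old replicate 15. Old replicate 15 combined a suppression of 63.6% with a mitotic sum of 11.8 scaled TPM, and Old replicate 17 a suppression of 29.2% with the lowest sum, 10.5.

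**Figure D5:**
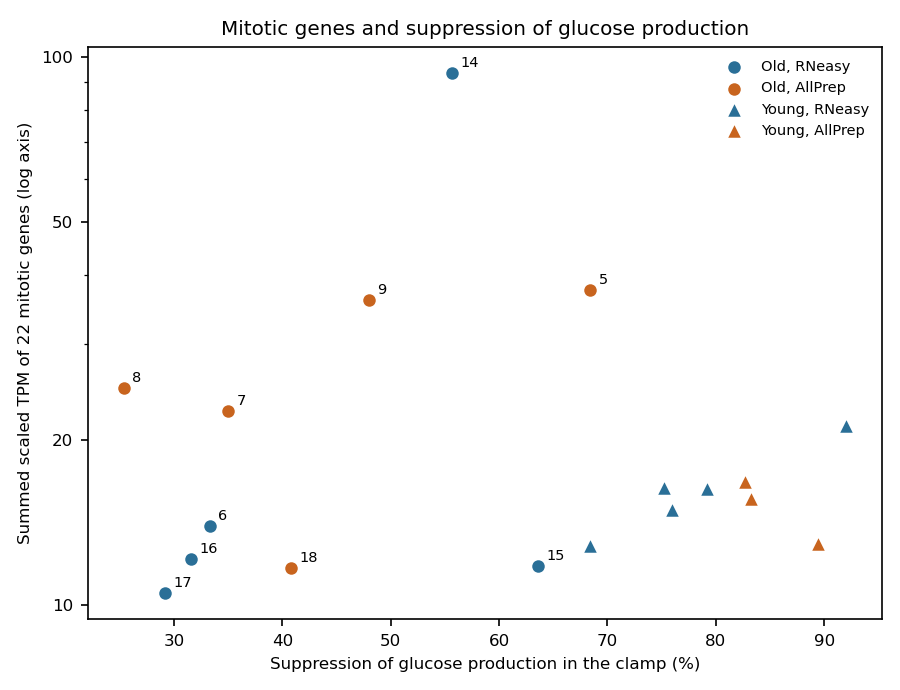
Summed scaled TPM of the 22 mitotic genes (vertical log axis) against suppression of glucose production in the clamp (horizontal axis, %), 1 point per mouse; circles are Old and triangles Young mice, blue RNeasy and orange AllPrep, and numbers give the Old replicates. Old replicates 14, 5, 9, 8 and 7 lie above all Young livers at suppressions between 25.4% and 68.4%.

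Other cell cycle genes were listed by function, 136 in all, of which 90 passed the filter. Here limma called 1 higher in Old livers (2.43% of all genes) and 3 lower (2.48% of all). Without Old replicate 14 these counts were 1 higher (3.66% of all genes) and 6 lower (3.49% of all). Pola1, the catalytic subunit of DNA polymerase alpha, which makes the primers of DNA copying, had 1.62, 1.95 and 2.94 scaled TPM in Old livers, against 1.27, 1.45 and 1.56 in Young livers. It rose by 0.38 ± 0.10 on the log2 scale (SE, adjusted p = 0.0297 by limma), and every Old liver was above every Young liver. Cdt1, which loads the MCM helicase onto DNA, had 1.10, 2.04 and 3.59 scaled TPM in Old livers, against 2.57, 3.29 and 4.04 in Young livers. It was lower in Old livers, at a log2 fold of -0.54 ± 0.15 (SE, adjusted p = 0.0473 by limma), although the groups overlapped and Old replicate 14 was the highest Old liver. This call was at the edge of the threshold and was lost when any 1 of 15 libraries was left out, at log2 folds of -0.56 to -0.45. Tfdp1, the partner of E2F proteins in DNA binding, had 7.77, 8.75 and 11.4 scaled TPM in Old livers, against 9.26, 10.9 and 12.1 in Young livers. It was lower, at a log2 fold of -0.23 ± 0.05 (SE, adjusted p = 0.0184 by limma). Myc, a growth-induced transcription factor, had 3.52, 4.52 and 13.6 scaled TPM in Old livers, against 8.93, 20.2 and 48.1 in Young livers, a log2 fold of -1.78 ± 0.29 (SE, adjusted p = 0.00347 by limma). Within kits the log2 folds, in RNeasy and then AllPrep, were 0.34 and 0.45 for Pola1, -0.65 and -0.38 for Cdt1, -0.17 and -0.32 for Tfdp1 and -1.87 and -1.66 for Myc, none of them called in these smaller sets. With clamp body weight as a further term none of the 4 was called, and Myc was at -1.06 (limma adjusted p = 0.376). Every Old mouse was heavier at the clamp than every Young mouse, so weight and age cannot be fully told apart in this fit. Nek2, a centrosome kinase, missed the threshold with all libraries (log2 fold -0.49, limma adjusted p = 0.0979) and was called lower without Old replicate 14 (-0.61, 0.0119), as were Spc25, a kinetochore protein, and E2f3, an E2F activator, which are named here after their values were seen.

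By list, the 36 other S phase genes had 1 called higher and 1 lower of 26 tested, and the 53 other G2 and M phase genes 0 and 0 of 24 tested, and the median log2 fold of the tested G2 and M phase genes was 0.17, or 0.05 without Old replicate 14. Old replicate 14 was the highest of the 18 livers in 46 of the 53 G2 and M phase genes and in 25 of the 36 S phase genes. Kif23, a motor of the central spindle, had a log2 fold of 0.42 (limma adjusted p = 0.159). The 16 CDK inhibitors, brakes and checkpoint genes had 0 calls of 13 tested, with Ccng1, a p53 target, at 0.24 (limma adjusted p = 0.076) and Chek2, a checkpoint kinase, at 0.35 (0.114). The inhibitor Cdkn1a (p21), named after its values were seen, was also highest in Old replicate 14, at 60.0 scaled TPM, against 14.6 in the highest Young liver. Its range was 5.49, 11.9 and 60.0 scaled TPM in Old livers, against 5.61, 9.80 and 14.6 in Young livers, and its log2 fold was 0.61 ± 0.33 (SE, adjusted p = 0.275 by limma). Cdkn2a, which encodes p16 and p19ARF, likewise named after its values were seen, had 0.103, 0.343 and 0.770 scaled TPM in Old livers, against 0.0232, 0.123 and 0.245 in Young livers. It was under the filter, at 5 to 48 reads in Old livers and 1 to 12 in Young livers. With the lower filter it was called higher, at a log2 fold of 1.33 ± 0.29 (SE, adjusted p = 0.0178 by limma). The groups overlapped, and this fold rests on these few reads. Old replicate 14 held the 48 reads, and the folds of Cdkn1a and Cdkn2a without that liver are not given here. Of the 20 CDK, E2F and MuvB genes 18 were tested, with Tfdp1 lower and none higher, and of the 11 hepatocyte growth signals 9, with Myc lower and none higher.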

How the data were processed

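RNA of 10 Old and 8 Young livers was sequenced after ribosomal RNA depletion, per the labels' protocols. The authors deposited 1 table of TPM values, reads per gene length scaled to the library total, for 18946 genes. The submitters' processing notes name STAR 2.7.9a, Subread, featureCounts, GRCm39 and mm10, with no roles. No source used here gives the gene lengths or whether strand was used in counting, and overlapping genes may share reads. Whole reads were recovered for 18946 of 18946 genes (all within 0.0001 of a whole number), 85790735 to 127487820 reads per library. Members held from 6 reads in a library, where counting error is large, to 13202.

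TPM was scaled per library by a trimmed mean of log ratios (30% of log ratios and 5% of means trimmed). The test took the 13895 genes that reached 0.5 TPM in 8 or more libraries, in R 4.3.3 with limma 3.58.1, with a variance trend, on log2(scaled TPM + 0.5), with age and extraction kit as terms and Benjamini-Hochberg adjustment over all tested genes. Folds are on this log2 scale, which understates changes of low genes. A call is an adjusted p under 0.05. A kit by age term, and a slope on glucose production suppression, were fitted in the same way. The scripts were tested on simulated data. Python 3.11.15, numpy 2.4.6, pandas 2.3.3, scipy 1.17.1 and matplotlib 3.10.9 made the tables and figures. Each library is 1 mouse, so p-values measure the spread between mice.

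The members and lists were chosen with earlier results of these data known. Values were given for Mki67, Top2a, Cdk1, Ccnd1, Pcna, Mcm2, Foxm1 and Ccnb1, for the 2 members of each role with the smallest p, for up to 6 called genes of each other list, and for the 2 with the smallest p where a list had none. Further members are named to account for each role. Alternatives covered scaling, filter, pseudocount, kit, library weights, body weight, a fold threshold, limma-voom on recovered reads and leaving out each library.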

Additional observations from a re-analysis of the deposited data

Results flagged for a closer look

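Of 80 groups examined, each a member gene in 1 age, 37 held a highest liver set far apart from the others of its group by Dixon's test at the 95% level. Chance sets apart about 1 in 20 groups if values are normally distributed, and scaled TPM was used here without a log. The genes are also not independent of each other. The share of all tested genes set apart in this way was not computed, and 19.7% of them were highest of the 18 libraries in Old replicate 14. The count is therefore a description and no test of these genes. In 30 genes the liver set apart was Old replicate 14.

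For G1 cyclins, Foxm1, the helicase and nucleotide supply, Old replicate 14 stood at 63.9 scaled TPM in Ccnd1, 6.32 in Ccne1, 2.52 in Foxm1, 8.33 in Mcm2, 8.24 in Mcm3, 4.89 in Mcm5, 9.49 in Mcm6, 10.9 in Mcm7, 33.4 in Rrm2 and 2.40 in Tyms. For mitotic cyclins and kinases it stood at 4.37 scaled TPM in Ccna2, 3.53 in Ccnb1, 5.24 in Ccnb2, 3.85 in Cdk1, 5.89 in Aurka, 4.57 in Aurkb, 3.89 in Plk1 and 1.14 in Bub1. For the spindle it stood at 3.13 scaled TPM in Kif11, 1.59 in Kif20a, 4.96 in Prc1, 3.06 in Tpx2, 1.48 in Anln and 1.55 in Cenpe. For chromosome proteins and mitotic exit it stood at 11.2 scaled TPM in Mki67, 10.4 in Top2a, 2.63 in Birc5, 5.35 in Cdc20, 8.73 in Ube2c and 2.09 in Cdkn3.

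Among Young livers, replicate 12 was set apart at 28.0 scaled TPM in Ccnd1, 1.68 in Ccne1, 0.735 in Ccna2, 1.17 in Nusap1 and 0.389 in Cenpe. Young replicate 13 was set apart at 18.5 scaled TPM in E2f8 and Young replicate 1 at 40.1 in Pcna.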

How the results depend on the processing

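No member was called in either direction under any alternative except library weights, which called 1 lower. The count of all genes called, 682, was 154 in AllPrep alone, 14 in RNeasy alone, 1432 with library weights, 19 with clamp body weight, 26 against a fold of 1.2 and 358 to 994 on leaving out 1 library. The 4 other cell cycle genes called became 2 without composition scaling, 2 without a kit term, 0 in AllPrep or RNeasy alone, 8 with library weights, 0 with body weight, 1 against a fold of 1.2 and 2 to 7 on leaving out 1 library. Alternatives chosen after seeing the data gave 63 genes (2 of the other cell cycle genes) in RNeasy without Old replicate 14, 1115 (8) with pseudocount and filter of 0.05 without it, and 9 other cell cycle genes with limma-voom without it. Fewer samples enter each single kit. Clamp body weight did not overlap between the ages, so fits with that term cannot fully separate weight from age. For the other changes the cause was not tested.

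Some log2 folds changed sign, none of them called. In RNeasy without Old replicate 14, the log2 fold was -0.36 in Mki67, -0.38 in Top2a, -0.39 in Cdk1, -0.21 in Ccnd1, -0.24 in Mcm2, -0.47 in Ccnb1, -0.0698 in E2f1, 0.28 in E2f8, -0.15 in Mcm4, -0.071 in Rrm1, -0.21 in Bub1b, -0.28 in Ccna2, -0.11 in Nusap1, -0.27 in Prc1, -0.40 in Cdc20 and -0.38 in Ube2c. With library weights, the log2 fold was -0.17 in Cdk1, -0.049 in Mcm2, -0.068 in Ccnb1, -0.016 in Ccna2 and -0.054 in Ube2c. With limma-voom, the log2 fold was -0.0086 in Cdk1. With limma-voom and the filter of 0.05, the log2 fold was -0.0085 in Cdk1. With limma-voom without Old replicate 14, the log2 fold was -0.37 in Cdk1, -0.071 in Ccnd1, -0.098 in Mcm2, -0.12 in Ccnb1, -0.00027 in Mcm4, -0.0094 in Rrm1 and -0.081 in Ccna2. With pseudocount and filter of 0.05 without that liver, the log2 fold was -0.29 in Cdk1, -0.026 in Ccnd1, -0.047 in Mcm2, -0.15 in Ccnb1, 0.017 in E2f8 and -0.021 in Ccna2. With body weight, the log2 fold was 0.14 in Pcna, -0.26 in E2f1 and 0.25 in E2f8. Without composition scaling, the log2 fold was 0.041 in Pcna. In RNeasy alone, the log2 fold was 0.012 in Pcna and 0.063 in E2f8. On leaving out 1 library, it ranged from -0.13 (without Old replicate 14) to 0.22 (without Old replicate 17) in Cdk1, -0.023 (without Old replicate 14) to 0.45 (without Young replicate 12) in Ccnd1, -0.039 (without Old replicate 17) to 0.035 (without Young replicate 1) in Pcna, -0.027 (without Old replicate 14) to 0.32 (without Old replicate 17) in Mcm2 and -0.19 (without Old replicate 17) to 0.055 (without Young replicate 13) in E2f8. The slope count of 10 of 31 members at an unadjusted p under 0.05 was 17 of 40 with no filter.

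No paired analysis was possible because no replicate number occurs in both ages. The edgeR test on recovered reads was not run. Members with few reads, 6 at the lowest, carry counting error that limits their folds, and the 9 members under the filter have no test in the main setting.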
